A study of Mus musculus with 3 samples.

Results

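The transcripts of the beta-catenin destruction complex and of the TCF factors were followed in RIP-seq (RNA immunoprecipitation and sequencing) of YTHDF2 in mouse embryonic stem cells (ESCs). The 10 genes were chosen by name from the table of counts, which held 49997 genes, and all 10 were present and passed the filter on low counts. They were Ctnnb1, which encodes beta-catenin, the scaffolds Apc, Axin1 and Axin2, the kinases Gsk3a and Gsk3b, and the TCF factors Tcf7, Tcf7l1, Tcf7l2 and Lef1. YTHDF2 is a reader protein that binds N6-methyladenosine (m6A) in RNA and promotes the decay of the bound transcripts. RIP-seq reads the RNA recovered with a protein, and an Input library serves as its reference.

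E14 cells were used, which had been treated with doxycycline (Dox) for 24 h. The study describes its ESC system as carrying a tdTomato reporter under the Mervl promoter and a Dux transgene switched on by Dox, whose product moves ESCs toward 2-cell-like cells (2CLCs). The medium held leukemia inhibitory factor, and the labels name no inhibitor of GSK3. The groups were 1 Input library and 2 YTHDF2 IP libraries, all of Dox-treated cells, so the comparison was IP against Input and not Dox against control. Nothing in the labels says that the 2 IP libraries came from separate cultures, and p-values therefore measure the spread between these libraries, which may be technical. The Input had no replicate, and no control-antibody IP was analysed here.

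Beta-catenin links cadherins to the cytoskeleton at cell junctions and also acts as a coactivator in the nucleus. In cells without a Wnt signal, APC and the AXIN proteins hold beta-catenin so that casein kinase 1 and GSK3 can phosphorylate it, after which it is marked with ubiquitin and degraded. A Wnt signal blocks this destruction complex, and the beta-catenin that accumulates binds TCF factors on DNA. In mouse ESCs, TCF7L1 is known as a repressor of pluripotency genes, and inhibition of GSK3 favours self-renewal.

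The m6A mark is placed mainly within the consensus DRACH, often near stop codons, and GGACT is a common form of it. The following windows of 25 bases each hold a coding GGACT, in capitals, in 5 of the 7 transcripts that have one. The other transcripts, Apc with 7 and Tcf7l2 with 1, are not shown. Each match is the nearest to the stop codon among those whose window lies in 1 exon and in the coding sequence. A nearer match whose window breaks this rule may exist. The window of Axin1 lies on the plus strand at chr17:26192590-26192614 in exon 9 of 11, that of Axin2 on the plus strand at chr11:108923917-108923941 in exon 2 of 11 and that of Ctnnb1 on the plus strand at chr9:120958594-120958618 in exon 14 of 15. The window of Gsk3b lies on the plus strand at chr16:38184454-38184478 in exon 4 of 12 and that of Tcf7l1 on the minus strand at chr6:72627685-72627709 in exon 13 of 13. All are coding sequence of RefSeq transcripts on GRCm38.p6, the assembly of mm10, written 5′ to 3′ on the strand of the gene. From the motif to the end of the stop codon the transcript ran 258 bases in Ctnnb1, 319 in Axin1, 340 in Tcf7l1, 907 in Gsk3b and 1884 in Axin2, so the last 2 lie far from it.
Axin1: cagccgtgtcGGACTtggaactctc
Axin2: gagtaacgggGGACTggggagccta
Ctnnb1: tgcagatcttGGACTggacattggt
Gsk3b: acctggtgctGGACTatgttccgga
Tcf7l1: gcagcacgctGGACTcccctgcgac

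Gsk3a, Tcf7 and Lef1 had no GGACT in the coding sequence of the transcript used, and a coding GGAC picked by the same rule is shown for them in capitals. These windows lie at chr7:25230795-25230819 on the minus strand in exon 7 of 11 for Gsk3a, at chr11:52257749-52257773 on the minus strand in exon 7 of 11 for Tcf7, and at chr3:131193221-131193245 on the plus strand in exon 7 of 11 for Lef1. A match is a run of letters, and methylation of these sites was not measured in these libraries.
Gsk3a: acagtggggtGGACcagcttgtgga
Tcf7: tggtgtacctGGACacccagcagcc
Lef1: acccccacacGGACagtgacctaat

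The counts summed to between 35259827 and 36986994 per library, and a count of 3 corresponded to at most 0.0851 CPM (counts scaled to the library total). This floor covers counting error only. Of the 12 ESC markers examined, all had reads in every library, with a summed level of 9408 CPM in the Input and 10493 and 10426 CPM in the IP libraries. The 8 fibroblast markers summed to between 40.6 and 65 CPM and the 8 primitive endoderm markers to between 73 and 100 CPM. In each library 2 or 3 fibroblast markers were at 0 reads, and no primitive endoderm marker was. The 9 markers of 2CLCs summed to 2778 CPM in the Input and to 4716 and 4717 CPM in the IP libraries. These marker sums combine levels of the Input with recovery in the IP, and their part in the results below was not tested.

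None of the 10 transcripts was enriched in the YTHDF2 IP and 2 were depleted, where a call required a fold change over 2 and an adjusted p under 0.05 by edgeR's quasi-likelihood test over 19601 tested genes. Over all tested genes, 15.0% were called enriched and 13.0% were called depleted. The depleted transcripts were Gsk3a and Tcf7. At any fold, 2 transcripts passed the adjusted p as higher in the IP (Axin1 and Axin2) and 6 as lower (Ctnnb1, Apc, Gsk3a, Gsk3b, Tcf7 and Tcf7l2), while the same rule took 28.4% and 28.9% of all tested genes. The median log2 fold change of the 10 was −0.34, beside a median of 0.0063 and quartiles of −0.72 and 0.81 over all tested genes, and 6 of the 10 lay between these quartiles. Log2 fold changes are given as IP over Input after scaling by trimmed mean of M values (TMM), with a standard error (SE) from the fit. They are relative to the bulk of the genes, and the amount of RNA recovered by the IP was not measured in these libraries.

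Levels, given as TPM (counts per base of exon, scaled to the same sum in each library), spanned a wide range. Ctnnb1 was at 406 TPM in the Input and lay above 98.1% of the tested genes. Gsk3a followed at 57.6, Axin1 at 35.8, Gsk3b at 20.7, Tcf7l1 at 15.8, Axin2 at 13.2, Tcf7 at 12.7 and Apc at 12.3 TPM. Tcf7l2 was at 4.66 TPM and Lef1, the lowest of the 10, at 0.787 TPM. With 1 Input library, no order among close neighbours such as Axin2, Tcf7 and Apc could be set against a spread. The levels also rest on the exonic length used, which for Tcf7 was 10946 bases against 2695 in the transcript used for motifs. In the IP libraries Ctnnb1 was again first, Axin1 stood above Gsk3a, and Axin2 and Tcf7l1 had overlapping values. The other neighbours in the IP order did not overlap between the 2 libraries.

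**Figure D1:**
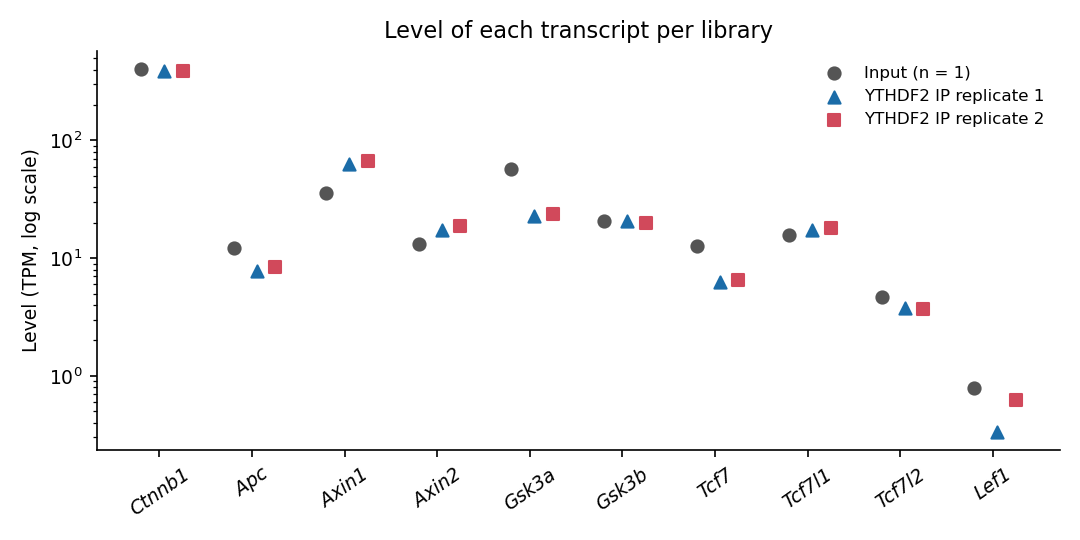
Level of each transcript in TPM on a log axis, with 1 point per library (Input, YTHDF2 IP replicates 1 and 2). The IP points lie above the Input for Axin1, Axin2 and Tcf7l1 and below it for Gsk3a, Tcf7, Apc, Tcf7l2, Lef1 and Ctnnb1. Gsk3b was at 20.7, 20.7 and 20 TPM, and Ctnnb1 is highest in every library at 406, 388 and 389 TPM.

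Beta-catenin itself changed little. Ctnnb1 (chr9:120933400-120960507, plus strand) had 25584 reads in the Input against 22415 and 22905 in IP replicates 1 and 2. Both IP values were below the Input, at a log2 fold change of −0.22 ± 0.0493 (SE, 2 IP libraries and 1 Input) with a 95% interval from −0.31 to −0.12 and an adjusted p of 0.000268 by edgeR. The value was negative under all 12 tested alternatives, from −0.31 to −0.064, but did not pass under 3 of them. It was smallest with counts scaled to TPM, where the adjusted p was 0.28, within a range over the tested alternatives from 1.16e-06 to 0.836.

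The scaffolds moved in different directions. Axin1 (chr17:26131217-26195811, plus strand), a core scaffold of the complex, had 2586 reads in the Input against 4196 and 4540 in the IP libraries. Both IP libraries were above the Input, and the rise was 1.64-fold (log2 0.72 ± 0.0744, adjusted p = 1.1e-10 by edgeR). It was 0.29 with the GC trend removed. The fitted 0.72 was the highest log2 fold change among the 10 and stood above 72.6% of all tested genes. Axin2 (chr11:108917828-108950783, plus strand), a paralog that Wnt signalling itself induces, had 1259 reads in the Input against 1519 and 1671 in the IP libraries. It was higher by 1.23-fold (log2 0.30 ± 0.104, adjusted p = 0.0131 by edgeR). Axin2 did not pass under 3 of 12 tested alternatives, among them DESeq2 with an adjusted p of 0.0993, within a range from 0.000156 to 0.767, and its sign turned with the GC trend removed. Axin1 exceeded Axin2 in log2 ratio to the Input by 0.43 in replicate 1 and 0.40 in replicate 2.

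Apc (chr18:34220297-34322190, plus strand), the large scaffold lost in most colorectal tumours, fell in the IP. Its counts were 2896 in the Input against 1678 and 1850 in the IP libraries, all IP values being below the Input. The fall was 1.69-fold (log2 −0.76 ± 0.0857, adjusted p = 8.87e-10 by edgeR), which is past the adjusted p but under the fold required for a call. Apc also had the longest chosen transcript of the 10, with 12251 bases, of which a single exon held 10186.

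The GSK3 kinases differed from each other. Gsk3a (chr7:25228258-25237851, minus strand) had 2265 reads in the Input against 816 and 866 in the IP libraries. Both IP values were under the Input by a wide margin, at 2.77-fold lower (log2 −1.47 ± 0.102, adjusted p = 2.2e-15 by edgeR), the lowest log2 fold change of the 10 and above only 9.17% of all tested genes. Gsk3b (chr16:38089001-38246084, plus strand) had 3064 reads in the Input against 2805 and 2765 in the IP libraries. The log2 fold change of Gsk3b was −0.18 ± 0.0758 (adjusted p = 0.0441 by edgeR). That result did not hold under 10 of 12 tested alternatives, over which its adjusted p ranged from 6.48e-06 to 0.971.

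Gsk3b thus exceeded Gsk3a in log2 ratio to the Input by 1.34 in replicate 1 and 1.24 in replicate 2. The fitted difference of 1.29 became 2.10 with the trend in GC content removed and 0.83 with that in exons per kilobase removed. On the TPM scale, Gsk3a made up 73.6% of the summed level of both kinases in the Input against 52.3% and 54.2% in the IP libraries. No test of this difference was run, and the values of both IP libraries share the 1 Input. Of the exonic length of Gsk3a, 506 bases (22.4%) overlap an exon of 9130221H12Rik on the opposite strand. That gene had 130 reads in the Input against 392 and 537 in the IP libraries. Counting did not use the strand and left out reads over more than 1 gene, so the values of Gsk3a come from the rest of its exons, and the part of this overlap in the result was not tested.

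The TCF factors were also unequal. Tcf7 (chr11:52246527-52283383, minus strand), which mainly acts with beta-catenin as an activator, had 2422 reads in the Input against 1092 and 1159 in the IP libraries. It was depleted 2.21-fold in the IP (log2 −1.15 ± 0.0963, adjusted p = 4.1e-13 by edgeR), with both IP libraries below the Input. Scaling to TPM placed the log2 fold change at −0.99, which is just under the fold required for a call. A fixed dispersion of 0.1 also ended the call, with an adjusted p of 0.131 by edgeR, the highest over the tested alternatives, of which the lowest was 1.35e-15.

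Tcf7l1 (chr6:72626371-72789045, minus strand), the repressor that is prominent in ESCs, had 956 reads in the Input against 972 and 1020 in the IP libraries. After scaling, 1 IP library lay below and 1 above the Input, at log2 ratios of −0.0054 and 0.043. The fitted log2 fold change was 0.019 ± 0.118 with a 95% interval from −0.22 to 0.26 (adjusted p = 0.906 by edgeR), so that changes of over 2-fold lay outside the interval.

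Tcf7l2 (chr19:55741797-55933659, plus strand), a TCF factor with activator and repressor isoforms, had 526 reads in the Input against 390 and 388 in the IP libraries. Both IP libraries were below the Input, by 1.39-fold (log2 −0.47 ± 0.163, adjusted p = 0.0124 by edgeR). It did not pass under 5 of 12 tested alternatives, over which its adjusted p ranged from 0.00553 to 0.606.

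Lef1 (chr3:131110297-131224357, plus strand), which is usually low in undifferentiated ESCs, had 62 reads in the Input against 24 and 46 in the IP libraries. The IP libraries differed by 0.90 on the log2 scale, while those of the other 9 transcripts differed by at most 0.12. The log2 fold change of −0.86 ± 0.506 had a 95% interval from −1.89 to 0.16 (adjusted p = 0.147 by edgeR), so a difference from the Input was not detected. Without IP replicate 2 the value was −1.37, and without IP replicate 1 it was −0.48.

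**Figure D2:**
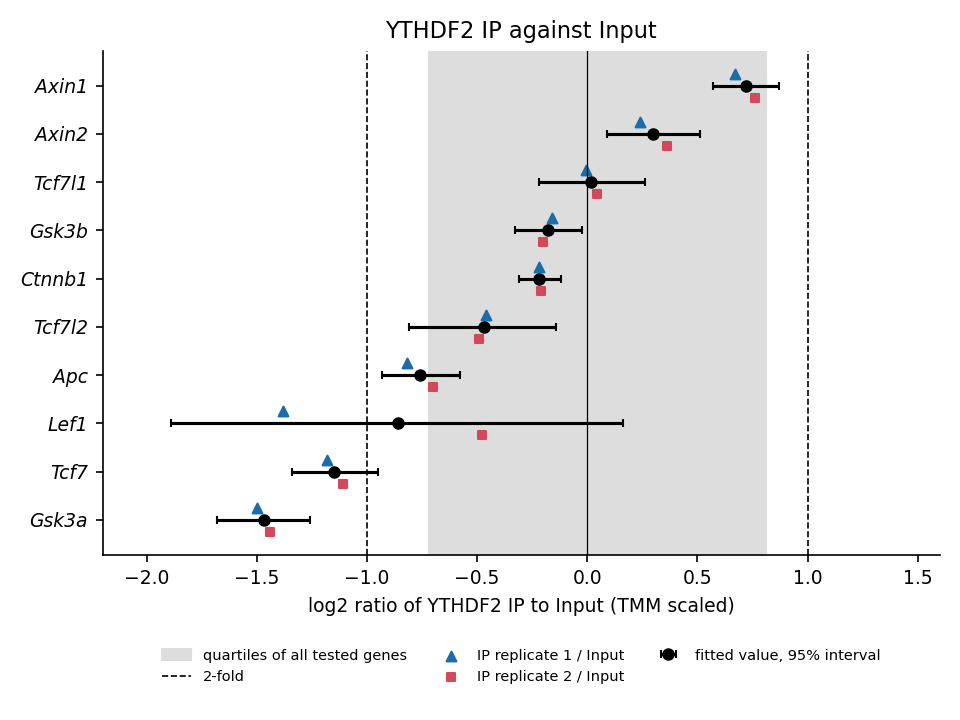
Log2 ratio of YTHDF2 IP to Input on TMM-scaled counts for the 10 transcripts, with the fitted value and its 95% interval in black and each IP replicate as a coloured point. Gsk3a at −1.47 and Tcf7 at −1.15 lie beyond the dashed line of a 2-fold change, and the grey band gives the quartiles of all tested genes, −0.72 and 0.81.

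Within the TCF factors the composition shifted toward Tcf7l1. Tcf7 made up 37.5% of the summed TPM of the 4 factors in the Input against 22.4% and 22.6% in the IP libraries, and Tcf7l1 made up 46.5% in the Input against 62.9% and 62.5% in the IP libraries. Tcf7l2 stayed between 12.7% and 13.7%, and Lef1 between 1.19% and 2.31%. TPM divides by the length of the merged exons, which for Tcf7 is 10946 bases against 2695 in its chosen transcript. Tcf7 had more Input reads than Tcf7l1 (2422 against 956) and a shorter chosen transcript (2695 against 2882 bases). The order of Tcf7 and Tcf7l1 in these shares therefore rests on the length used. Since the shares of a set add up, the higher share of Tcf7l1 goes with the fall of Tcf7, and the level of Tcf7l1 itself was 15.8, 17.5 and 18 TPM. In log2 ratio to the Input, Tcf7l1 exceeded Tcf7 by 1.17 in replicate 1 and 1.16 in replicate 2, and with the GC trend removed the fitted difference was 0.73.

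**Figure D3:**
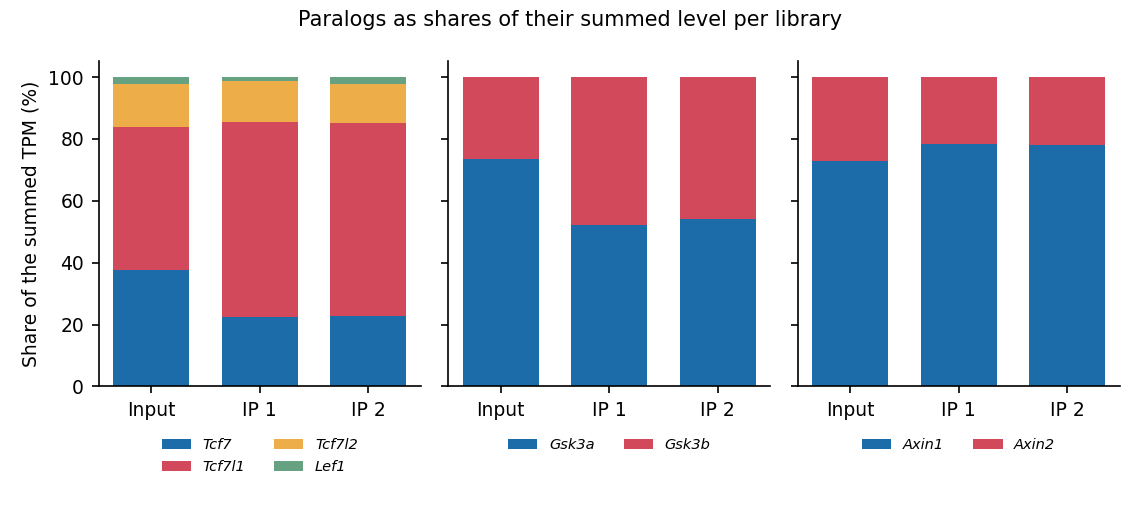
Shares of the summed TPM (%) of the TCF factors, of both GSK3 kinases and of both AXIN scaffolds in the Input and in YTHDF2 IP replicates 1 and 2. TPM uses the merged exons of each gene, and the shares depend on that length. Tcf7l1 takes 46.5% of the TCF factors in the Input against 62.9% and 62.5% in the IP libraries, and Gsk3a falls from 73.6% of the kinases to 52.3% and 54.2%.

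The counts of Tcf7 combine several transcript forms. Its merged exons in the annotation cover 10946 bases, of which 68.1% lie in 1 merged exon, while its chosen transcript has 2695 bases. Exons of Tcf7 also overlap the neighbouring gene Skp1 on the opposite strand over 332 bases. Skp1, a part of the ubiquitin ligase that acts on beta-catenin, had 7451 reads in the Input against 4161 and 4277 in the IP libraries. Reads over both genes were left out, and the part of this neighbour in the value of Tcf7 was not tested.

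The GC content of the exons moved with the log2 fold change across genes, with a Spearman's rho of 0.359 over 14396 tested protein-coding genes. These genes share the same 3 libraries, and no p is given. Of genes with a GC content below 45%, 5.26% were enriched and 27.6% depleted, whereas of those between 57% and 60%, 26.2% were enriched and 3.43% depleted. Apc (44.9%) and Tcf7l2 (45%) lay at the low end of the 10, and Tcf7l1 (56.9%), Axin1 and Axin2 (57.3% each) and Gsk3a (59.8%) at the high end.

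Gsk3a stood far from genes of like GC content. It had the highest GC content and the lowest log2 fold change of the 10, and only 1.71% of the 645 genes within 1 percentage point of its GC content lay below it. Their median log2 fold change was 0.57. Tcf7 lay above 12.3% of the 1599 genes of its GC content, and Lef1 above 12.8% of 1549. Axin1 lay above 64.4% of 1200 such genes, and the other 6 transcripts lay above between 31.3% and 52.4% of theirs.

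Where the trend with GC content was removed, the log2 fold changes were −2.10 for Gsk3a, −1.10 for Tcf7 and 0.29 for Axin1. Apc moved from −0.76 to −0.47, and Tcf7l2 from −0.47 to −0.20, where it no longer passed (adjusted p = 0.317 by edgeR, within the range given above). Axin2 turned from 0.30 to −0.12 and Gsk3b from −0.18 to 0.0038. Tcf7l1 turned from 0.019 to −0.37, with an adjusted p of 0.00636 by edgeR, within a range from 0.00636 to 0.986 over the tested alternatives. The direction given above for Axin2 and Gsk3b therefore held relative to all genes and not relative to genes of like GC content.

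**Figure D4:**
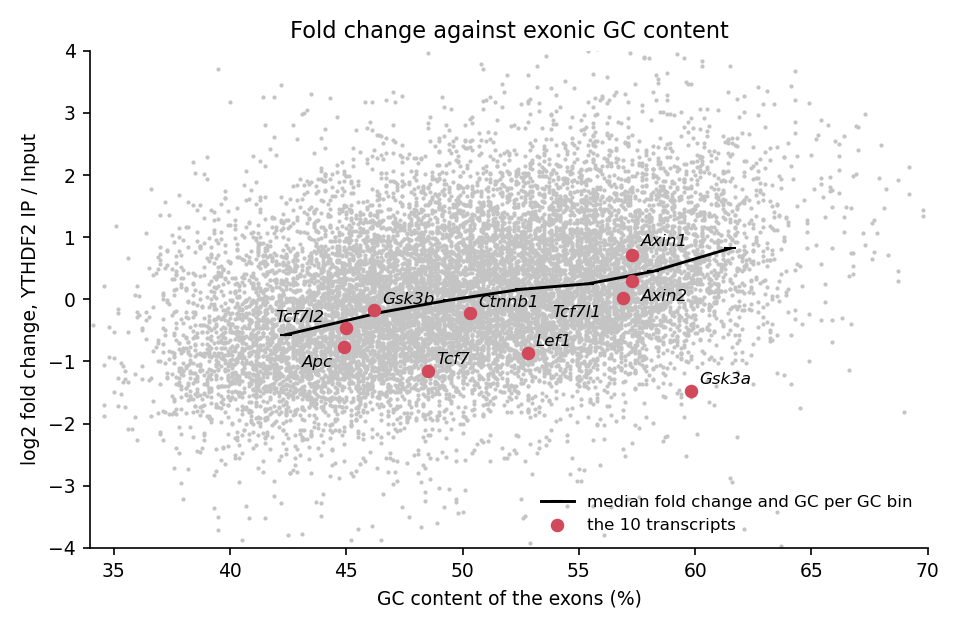
Log2 fold change of YTHDF2 IP over Input against the GC content of the exons (%) for 14256 tested protein-coding genes (grey; 140 more lie beyond the axes and are not drawn), with the 10 transcripts in red and the median of genes in bins of GC content as a black line. Of the 10, Gsk3a, at 59.8% GC and −1.47, lies furthest below the line, and Axin1 lies above it at 0.72.

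The transcripts also differed in the motifs shown above. The coding sequence held 7 GGACT in Ctnnb1 and in Apc, 6 in Axin1, 4 in Axin2, 2 in Gsk3b and in Tcf7l1, 1 in Tcf7l2 and 0 in Gsk3a, Tcf7 and Lef1, counted on the sense strand of 1 RefSeq transcript per gene. A coding GGACT was present in 76.4% of the 14396 genes and a coding GGAC, which every GGACT contains, in 97.4%. The coding sequences of Gsk3a, Tcf7 and Lef1 had 1473, 912 and 1239 bases, and 75.4% of the 4097 genes with a coding sequence of 900 to 1500 bases held a GGACT. The 3 transcripts without it had the lowest log2 fold changes of the 10, although the interval of Lef1 covered the values of 7 of the others.

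Over the 10 transcripts, the number of GGACT per kilobase of coding sequence had a Spearman's rho of 0.841 with the log2 fold change. This was the strongest of 22 features examined and was picked out after the values were seen, and the points share the same libraries. Over 14396 genes the same rho was 0.0588, and genes with and without a coding GGACT had medians of 0.012 and −0.015. In the untranslated region after the stop codon, Gsk3b held 8 GGACT, Tcf7l1 4, Tcf7 3, and Apc, Axin2 and Tcf7l2 1 each, while Ctnnb1, Axin1, Gsk3a and Lef1 held 0, so that the transcripts without it included the highest and the lowest log2 fold change of the 10.

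Other genes of the pathway were compared in 6 lists, which held 139 genes in the table, 125 of them tested. The tested genes Znrf3, Rnf43 and Dkk1 stand both in the list of co-receptors and antagonists and in that of targets. They count once among the 125 and in each of their lists below. Of the 125, 27 (21.6%) were enriched and 14 (11.2%) depleted, beside the 15.0% and 13.0% of all tested genes, and their median log2 fold change was 0.40. With the GC trend removed, 17 (13.6%) were enriched and 10 (8.00%) depleted, beside 13.5% and 11.6% of all tested genes, and the median was 0.22.

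Among 32 partners of the destruction complex, 6 were enriched, 5 depleted and the median log2 fold change was 0.13, and 3 were depleted under TPM scaling or with the GC trend removed. Csnk1g2, a casein kinase 1 of the membrane, rose from 5579 reads in the Input to 20014 and 20844 (3.56-fold), and the ubiquitin ligase gene Siah1a rose 2.75-fold. The log2 fold change of Csnk1g2 was 1.83, and 1.04 with the GC trend removed. The other casein kinase 1 genes of the list, named after their values were seen, were unequal. They stood at −0.31 for Csnk1a1, 0.022 for Csnk1e, 0.032 for Csnk1g1, 0.66 for Csnk1g3 and 1.05 for Csnk1d. Tnks, whose product marks AXIN for degradation, fell from 1176 reads to 199 in each IP library (6.07-fold lower), and Ppp2r1a, the scaffold of protein phosphatase 2A, was 2.37-fold lower. Of 9 tested adhesion partners of beta-catenin, 0 were enriched and 2 depleted, and the median was −0.48 (−0.34 in IP replicate 1, −0.62 in IP replicate 2). Vcl, which encodes vinculin of the cell junction, fell from 2429 reads to 289 and 323 (8.16-fold lower), the lowest log2 fold change of that list. The other depleted gene of that list, Cdh2, which encodes N-cadherin, was named after its value was seen and had 83 reads in the Input against 50 and 18 in the IP libraries. Its IP libraries lay far apart, and its log2 fold change of −1.32 (adjusted p = 0.0232 by edgeR) lost the call under 5 of 12 tested alternatives, DESeq2 among them, over which its adjusted p ranged from 0.00852 to 0.221.

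Of 22 nuclear cofactors, 4 were enriched, 1 was depleted and the median was 0.45. The coactivator gene Pygo1 rose 3.85-fold and Ctnnbip1, an inhibitor of the binding of beta-catenin to TCF factors, rose 2.71-fold, while Cdc73, a part of the PAF complex, was 3.33-fold lower. With the GC trend removed Cdc73 was at −0.97 on the log2 scale, just under the fold required, and no cofactor was called depleted. Of 16 tested genes of Wnt ligands and their secretion, 6 were enriched, 1 was depleted and the median was 0.92, with medians of 1.16 and 0.62 in IP replicates 1 and 2. Wnt5b rose 4.35-fold and Wnt3a 3.9-fold, from 58 and 60 reads in the Input, and Wls, needed for the export of Wnt proteins, was 2.62-fold lower. Wls lost the call with the GC trend removed (log2 −0.82) and under a fixed dispersion of 0.1. Of 25 tested co-receptors, R-spondins, R-spondin receptors and antagonists (co-receptors and antagonists for short), 5 were enriched, 2 were depleted and the median was 0.54. The medians were 0.33 and 0.52 in IP replicates 1 and 2, and with the trend in GC content removed 2 of these genes were enriched. Rspo1, a secreted enhancer of Wnt signals, rose 5.7-fold, the antagonist gene Apcdd1 rose 2.28-fold and Dkk3 was 2.21-fold lower. The log2 ratios of Rspo1 to the Input were 2.26 and 2.72 in IP replicates 1 and 2. Its log2 fold change of 2.51 became 1.86 with the GC trend removed.

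Of 24 tested genes known as targets of TCF factors, 6 were enriched, 3 were depleted and the median was 0.58. The medians of the log2 ratios were 0.68 and 0.37 in IP replicates 1 and 2, and with the GC trend removed 3 targets were enriched. Tcf15, a transcription factor linked to priming for differentiation, rose from 1661 reads to 14574 and 15517 (8.81-fold), and the homeobox gene Cdx1 rose from 135 to 1118 and 1120 (8.06-fold). The pluripotency factor gene Klf5 fell from 7013 reads to 1661 and 1554 (4.48-fold lower), and Dusp6, a phosphatase of ERK signalling, was 2.23-fold lower. With the GC trend removed, the log2 fold change moved from 3.14 to 2.23 for Tcf15 and from 3.01 to 2.18 for Cdx1. That of Klf5 moved from −2.16 to −2.82. The call of Apcdd1 was lost with the trend in GC content or in exons per kilobase removed, that of Ppp2r1a with the latter and that of Dkk3 under TPM scaling. A fixed dispersion ended these 3 calls and those of Siah1a, Ctnnbip1 and Dusp6. The rule named 18 list genes, and Cdh2 and the casein kinase 1 genes other than Csnk1g2 were not among them. Of these 18, Pygo1, Wnt5b, Wnt3a, Rspo1 and Cdx1 reached the 5 CPM required for naming through the IP libraries alone and Wls through the Input alone. The direction of these genes is partly set by that choice. Each of the 18 genes, and Cdh2, passed an adjusted p under 0.05 by edgeR in the same direction in both IP libraries. No difference between the lists or between a list and the 10 transcripts was tested.

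**Figure D5:**
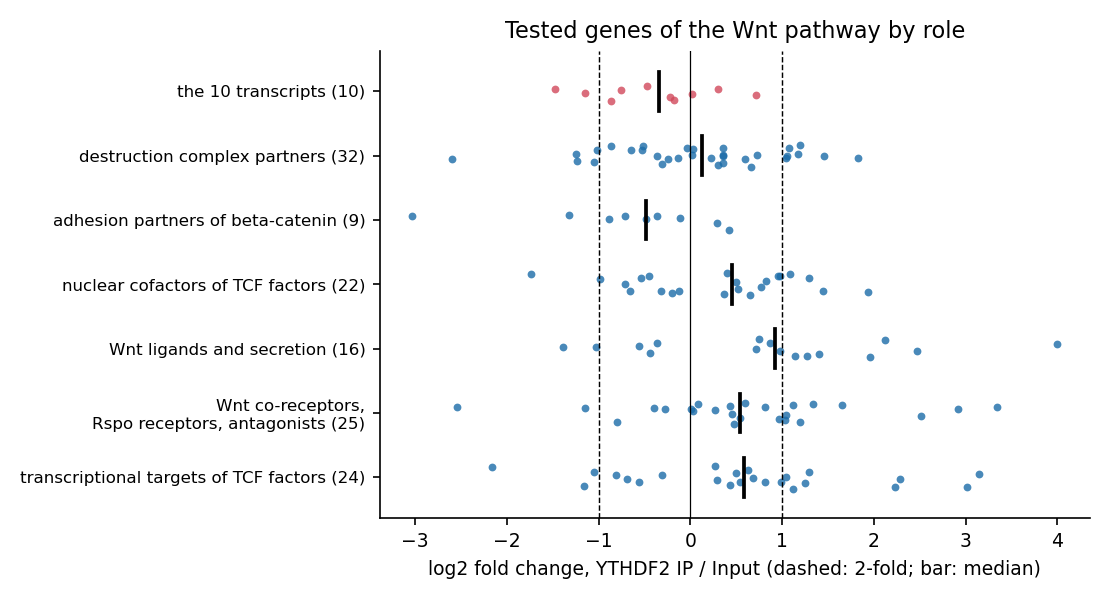
Log2 fold change of YTHDF2 IP over Input for the tested genes of the Wnt pathway by role, with 1 point per gene, a bar at the median of each list and dashed lines at a 2-fold change. Genes of more than 1 list are drawn in each. The medians run from −0.48 for the adhesion partners and −0.34 for the 10 transcripts to 0.92 for the Wnt ligands and their secretion.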

How the data were processed

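The 3 RIP-seq libraries were 1 Input and 2 YTHDF2 IP libraries of Dox-treated E14 ESCs. The methods of the study describe IP from a cleared lysate, whereas the labels describe IP of RNA extracted with Trizol, and which was done could not be told from the counts. The labels name a commercial source of the IP antibody (abcam), the RIP methods name none, and the antibody listed for western blots came from another supplier (Proteintech). Per the methods and the submitters' processing notes, reads went through fastp 0.19.4 and HISAT2 2.2.1 (mm10). The authors deposited raw counts per gene from featureCounts 2.0.3 over RefSeq exons. Mates were counted singly and strand was not used, so sampling noise exceeds what the counts imply. Of counts from 1 to 100, 61.4% to 64.7% were even.

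IP was compared with Input in edgeR 4.0.16 under R 4.3.3 (filterByExpr, TMM, robust glmQLFit, glmQLFTest, 1 residual degree of freedom, Benjamini-Hochberg adjustment over 19601 genes). The common dispersion gave a coefficient of variation of 7.33%. Replicate log2 ratios carried a pseudocount of 0.5. Alternatives changed the scaling, filter, test (DESeq2 1.42.0), dispersion, counts (halved), trends in GC content, length and exons per kilobase (lowess, span 0.3) or left out an IP library. Scripts were tested on simulated data. Transcripts, positions and sequences came from RefSeq on GRCm38.p6, and all 10 genes had the same start and end as in the table. Among curated RefSeq transcripts, the one with the longest coding sequence was used, and a predicted one only where no curated one existed. Motif counts hold for that transcript alone, and other forms, such as those of Tcf7, may differ. From each list, up to 2 genes per direction with the largest changes, a call and at least 5 CPM on average were named. The 10 genes and the lists were chosen with earlier results of these data known.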

Additional observations from a re-analysis of the deposited data

How the results depend on the processing

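Over 14 alternatives, 1 of them (the fit without the robust option) chosen after seeing the data, 140 values of the 10 transcripts were computed. Of these, 114 kept their direction and, where tested, their side of the adjusted p, 22 were no longer past it and 4 changed sign. The sign changes were Axin2 (−0.12), Gsk3b (0.0038) and Tcf7l1 (−0.37) with the GC trend removed and Tcf7l1 (−0.015) with the length trend removed. Gsk3a was past the adjusted p in all 12 tested alternatives, and Axin1, Apc and Tcf7 in 11 each, the exception being a fixed dispersion of 0.1.

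The number of depleted transcripts was 1 under TPM scaling and 1 under the fixed dispersion, in each case Gsk3a, and 3 with the trend in exons per kilobase removed, where Apc was at −1.02. Transcripts past the adjusted p as lower numbered 3 under TPM scaling and 1 under the fixed dispersion, and those past it as higher numbered 1 under DESeq2, 1 with the GC trend removed and 0 under the fixed dispersion. The median of the 10 was −0.25 under total count scaling, −0.19 under TPM scaling, −0.32 without the filter, −0.37 and −0.48 with the trends in length and exons per kilobase removed, and −0.34 under the other alternatives that kept all libraries. TPM scaling moved the median of all genes by 0.15, and under it 64% of the calls over all genes were enriched, beside 53.6%. The fixed dispersion left 1577 enriched and 1531 depleted genes, beside 2936 and 2543.

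The difference of Gsk3b over Gsk3a was 2.10, 1.41 and 0.83 with the trends in GC content, length and exons per kilobase removed, that of Tcf7l1 over Tcf7 was 0.73, 1.09 and 1.54, and that of Axin1 over Axin2 was 0.48 with the last. For the partners of the complex, depleted genes numbered 3 under total count and TPM scaling and with the trends in GC content and exons per kilobase removed. Under the fixed dispersion 1 partner was enriched and 1 depleted. Depleted adhesion partners numbered 1 under DESeq2 (adjusted or unadjusted p), halved counts and the fixed dispersion. Enriched cofactors numbered 1 under the fixed dispersion, and depleted ones 0 with the GC trend and 2 with the length trend removed. Depleted genes of Wnt ligands and secretion numbered 0 under the fixed dispersion and with the GC trend removed. For the co-receptors and antagonists, enriched genes numbered 3 under the fixed dispersion and 2 with the trend in GC content or exons per kilobase removed, and depleted genes 1 under TPM scaling and the fixed dispersion. For the targets, enriched genes numbered 3 under the fixed dispersion and with the GC trend removed, and depleted genes 1 under the fixed dispersion. The 1003 tested genes without a GC value, 4 of them in the lists, were left uncorrected where the GC trend was removed, and the cause of the changes was not tested.

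Without 1 IP library there is no test, and genes past the fold alone were counted. Leaving out each IP library gave 3636 to 3671 depleted and 3940 to 4047 enriched genes, 2 to 3 depleted transcripts and a median of −0.34 to −0.33. The lists then held 7 to 8 enriched and 4 to 6 depleted partners, 1 to 2 depleted adhesion partners, 4 to 5 enriched cofactors, 5 to 10 enriched and 2 depleted genes of ligands and secretion, 8 to 9 enriched and 2 to 3 depleted co-receptors and antagonists, and 7 to 10 enriched and 2 to 4 depleted targets. The differences between paralogs were 1.24 to 1.34 for Gsk3b over Gsk3a, 0.40 to 0.43 for Axin1 over Axin2 and 1.16 to 1.17 for Tcf7l1 over Tcf7.

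No paired analysis was possible because 1 Input served both IP libraries and has no number that pairs it with either. Lef1 had few reads, 24 to 62, and its IP libraries differed by 0.90 on the log2 scale. The single Input leaves its own spread unmeasured in every comparison.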
